A study of Mus musculus with 32 samples.

Results

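Chemokines and their receptors were followed across all 8 groups of a mouse muscle RNA-seq study of DUX4, a human transcription factor that causes facioscapulohumeral dystrophy when it is misexpressed in skeletal muscle. The members were chosen by gene symbol: all genes named Ccl, Cxcl, Ccr, Cxcr or Ackr with a number, plus Xcl1, Xcr1, Cx3cl1 and Ccrl2, leaving out Ccl21a. The rule took 67 of the 43035 rows of the tables, 45 of them ligands, 17 signalling receptors and 5 atypical receptors, and no measured value entered it.

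Chemokines are small secreted or membrane-bound proteins that direct the migration of leukocytes, and they are sorted into CC, CXC, XC and CX3C families by the spacing of their first cysteines. They act through G protein-coupled receptors on the migrating cell, while the atypical receptors Ackr1 to Ackr4 and Ccrl2 bind ligands without classical G protein signalling and scavenge, transport or present them. In injured muscle, resident stromal and endothelial cells and invading macrophages are all known sources, and the ligand Ccl2 with its receptor Ccr2 is the axis best known for recruiting monocytes.

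Whole muscle gave 4 groups: WT.2Weeks (5 libraries), IDUX.2Weeks (5), WT.16Weeks (4) and IDUX.16Weeks (4), where IDUX carries an inducible DUX4 gene. The remaining 4 groups were cells taken by flow sorting from hind limb muscle: CD31+ endothelial cells of WT (CD31WT, 3 libraries) and DUX4 mice (CD31DUX, 4), and PDGFRa+ fibroadipogenic progenitors, the connective tissue progenitors abbreviated FAP, of WT (PDGWT, 3) and DUX4 mice (PDGDUX, 4). The treatment given in the labels for all groups, WT included, was chow containing doxycycline. The promoter behind the inducible gene, the age of the mice and the time point of the sorted cells are not stated in the labels, and the DUX4 transcript itself was not analysed here. Nothing in the labels ties a library to an animal of its own, so each p-value measures the spread between these libraries, which may be technical. Replicate numbers below follow accession order and only name a library.

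Totals ran from 6071276 to 20666816 estimated counts per library. Levels are given as CPM, the counts of each library scaled to a common size with factors from the trimmed mean of M-values (TMM), and a count of 0 in a library allows a level of up to 0.145 to 0.494 CPM, the value of 3 counts, for counting error only. Sorted libraries carried their defining markers: the summed level of 10 endothelial markers was 3700 to 5890 CPM in the 7 CD31+ libraries against 99.5 to 297 CPM in the 7 FAP libraries, and that of 10 FAP markers was 110000 to 158000 CPM against 9200 to 32900 CPM. By genotype the endothelial sum was 5130 to 5890 CPM in CD31WT and 3700 to 4300 CPM in CD31DUX, without overlap. Several libraries stood apart. WT.16Weeks replicate 1 had a macrophage marker sum of 209 CPM against 41.2 to 46.7 CPM in the other 3 libraries of its group, CD31WT replicate 1 had 997 CPM against 205 and 236 CPM, and among the 2-week libraries replicates 4 and 5 of both genotypes had lower macrophage sums than replicates 1 to 3. Within each genotype the endothelial and mural cell sums of replicates 4 and 5 were higher. WT.16Weeks replicate 1 was also low in endothelial (183 against 399 to 409 CPM), FAP (190 against 694 to 745) and mural cell sums (119 against 388 to 548). Its satellite cell sum was high (148 against 42.5 to 46.9 CPM) and its red blood cell sum low (0.651 against 275 to 743 CPM). In whole muscle and in a sorted gate alike, fewer cells of a type and less RNA per cell cannot be told apart.

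Promoters of 4 members are shown: Cx3cl1 and Cxcl9, which were higher with DUX4 in both whole muscle and FAPs, Cxcl10, which neighbours Cxcl9, and Ackr2, whose difference had opposite signs in the 2 sorted cell types. Cxcl10 itself passed the threshold in no main comparison of DUX4 with WT. Cxcl16 was also higher in both whole muscle and FAPs, but no RefSeq promoter was matched for it. Each run is the 250 bases before the RefSeq transcription start (GRCm38.p6), 5′ to 3′ on the gene's strand, and capitals mark matches on either strand to the motifs named in the next paragraph. The windows are chr8:94771930-94772179 on the plus strand for Cx3cl1, chr5:92328080-92328329 on the minus strand for Cxcl9, chr5:92348890-92349139 on the minus strand for Cxcl10 and chr9:121898105-121898354 on the plus strand for Ackr2.
Cx3cl1: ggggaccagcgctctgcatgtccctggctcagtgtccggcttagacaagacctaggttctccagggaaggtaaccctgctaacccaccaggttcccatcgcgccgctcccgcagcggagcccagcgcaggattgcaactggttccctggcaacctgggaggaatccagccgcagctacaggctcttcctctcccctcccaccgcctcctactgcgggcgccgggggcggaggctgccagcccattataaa
Cxcl9: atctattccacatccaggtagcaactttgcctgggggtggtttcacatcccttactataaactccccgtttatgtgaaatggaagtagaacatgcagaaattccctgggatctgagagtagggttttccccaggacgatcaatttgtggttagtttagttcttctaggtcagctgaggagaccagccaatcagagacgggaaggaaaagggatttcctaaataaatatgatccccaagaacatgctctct
Cxcl10: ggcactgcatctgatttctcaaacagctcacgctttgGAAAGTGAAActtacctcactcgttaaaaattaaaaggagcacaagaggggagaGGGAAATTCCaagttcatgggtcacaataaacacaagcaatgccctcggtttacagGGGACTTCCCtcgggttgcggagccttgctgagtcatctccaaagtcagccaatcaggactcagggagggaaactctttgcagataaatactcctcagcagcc
Ackr2: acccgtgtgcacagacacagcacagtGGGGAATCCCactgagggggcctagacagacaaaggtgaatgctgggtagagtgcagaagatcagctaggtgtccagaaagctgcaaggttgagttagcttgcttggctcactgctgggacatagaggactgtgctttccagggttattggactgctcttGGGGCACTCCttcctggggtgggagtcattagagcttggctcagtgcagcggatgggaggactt

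The motifs searched on both strands were 4: the NF-kB consensus, an interferon-stimulated response element type (TTTC, 2 bases of any kind, TTTC), a gamma-activated sequence type (TTC, 3 bases of any kind, GAA) and a DUX4 type (TAA, 3 bases of any kind, AATCA). RefSeq promoters were matched for 44 of the 63 member symbols. The NF-kB consensus was found for 10 of these 44 symbols, among them Cxcl1, Cxcl2, Cxcl3, Cxcl10, Ccl9, Ccrl2 and Ackr2, against 3.9% of all 32851 windows of the same length. A symbol was counted when any of its windows matched, so symbols and windows are not the same unit. The Cxcl10 window holds it at 2 places and the interferon type at 1, and the Ackr2 window holds NF-kB matches at 2 places. No motif was found in the windows of Cx3cl1 or Cxcl9. The DUX4 type was found for 0 of the 44 member symbols and in 0.956% of all windows. These are letter matches within this window only.

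Whole muscle held a small set of abundant members. Per kilobase of exon, the ligands with the highest mean level in WT.2Weeks were Cxcl14 (13.2 CPM per kb), Cxcl12 (11.7), the stromal ligand of Cxcr4, and Ccl11 (9.78), the eosinophil attractant eotaxin, and the same 3 led in the other whole-muscle groups. Among receptors Ackr3, an atypical receptor of Cxcl12, led with 8.73 CPM per kb, ahead of Cxcr4 with 2.86. The summed level of all ligands was 97.0 to 224 CPM in whole muscle. It was 2080 to 4400 CPM in CD31+ cells and 10300 to 24000 CPM in FAPs, where Cxcl1, a neutrophil attractant acting through Cxcr2, made up 44.0% of the sum in PDGWT. Cxcl1 was at 664 to 1670 CPM in CD31+ libraries and at 4090 to 12000 CPM in FAP libraries, but at 0 to 2.42 CPM in whole muscle. The immediate-early gene Fosb moved the same way, at 213 to 577 CPM in sorted libraries and 0 to 4.13 CPM in whole muscle. Sorted cells and whole muscle were extracted and amplified with different kits, so tissue source, sorting and kit cannot be told apart in such a contrast, and no test was made across them.

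**Figure D1:**
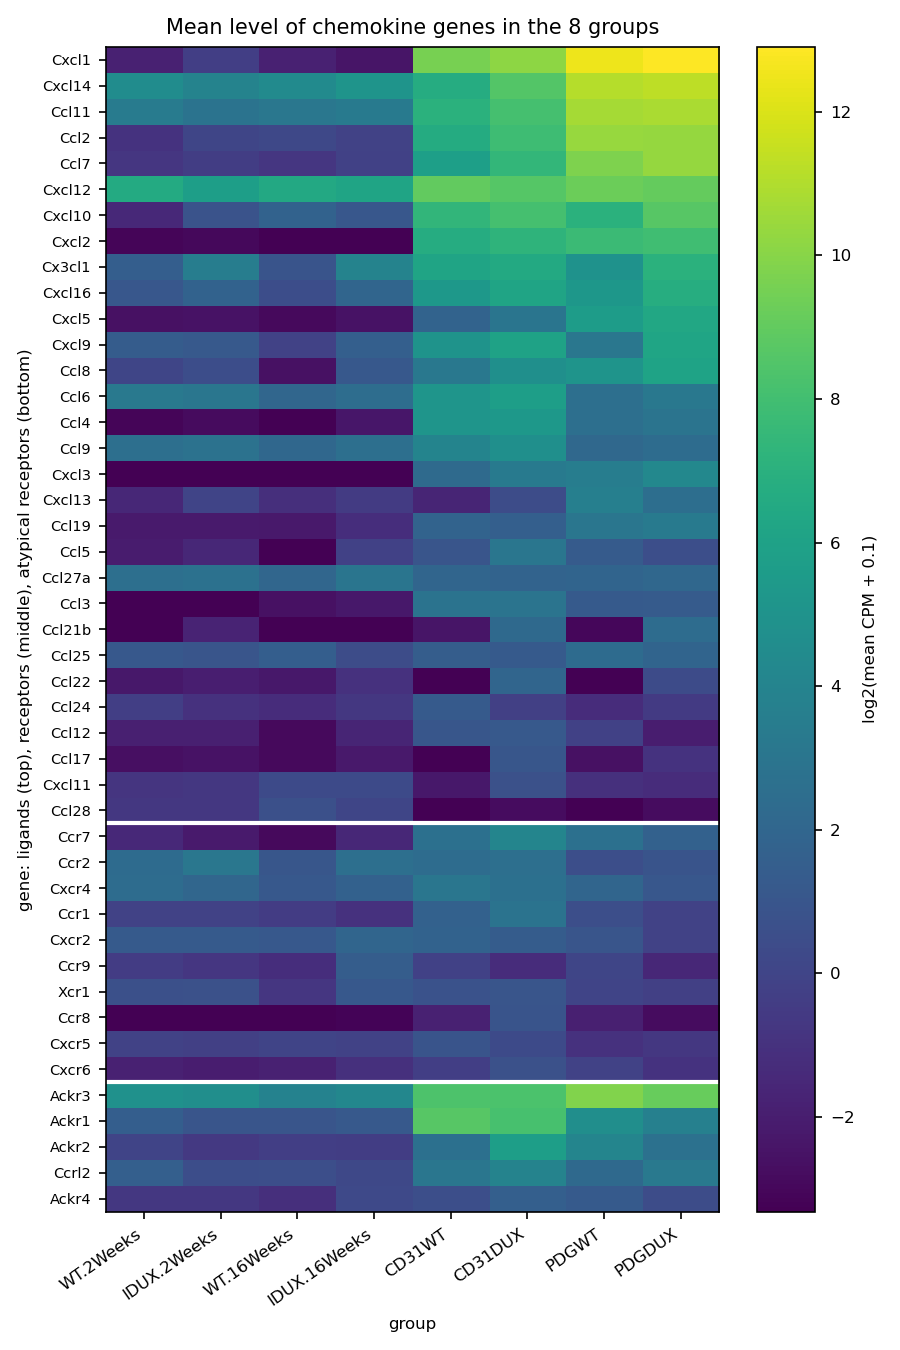
Mean level of 45 members that reached a group mean of 1 CPM or more in at least 1 of the 8 groups (columns); colour is log2(mean CPM + 0.1), rows are ligands, then receptors, then atypical receptors. The upper rows are brightest in the FAP columns, where Cxcl1, Cxcl14, Ccl11, Ccl2 and Ccl7 lead, the signalling receptor rows stay dark in every column, and Ackr3 and Ackr1 are the brightest receptor rows.

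In WT sorted cells 27.1% of the members tested differed between the 2 cell types, a share below that of all genes given next. Among the 29 ligands tested, 7 were higher in FAPs and 2 in CD31+ cells, and the others were not called. Of 48 members tested, 9 were higher in FAPs and 4 were higher in CD31+ cells (adjusted p under 0.05 by edgeR's quasi-likelihood test, Benjamini-Hochberg over all genes); 31.1% of all 17008 genes tested were called in this comparison, 16.7% higher in FAPs and 14.5% lower. Higher in FAPs were Cxcl14 (1930 to 2390 CPM against 77.9 to 138), Ccl11 (1390 to 1880 against 118 to 139), Ccl7 (677 to 979 against 49.3 to 69.5) and Ccl2 (787 to 1800 against 72.6 to 124), with log2 differences of 4.38 ± 0.22 (SE), 3.71 ± 0.20, 3.88 ± 0.38 and 3.73 ± 0.50. Ccl2 and Ccl7 are monocyte attractants acting through Ccr2. Cxcl1, Cxcl5, Cxcl13, Ackr2 and Ackr3 were the other 5. Cxcl13, a B cell attractant, was at 9.57 to 16.4 CPM in PDGWT and at 0 in 2 of the 3 CD31WT libraries. Its log2 difference of 5.74 became 10.6 without CD31WT replicate 1, the library with 0.674 CPM.

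Among those higher in CD31+ cells were Ackr1, Cx3cl1 and Cxcl9. Ackr1, the atypical receptor that carries chemokines across venular endothelium, was at 308 to 498 CPM in CD31WT and 15.6 to 45.5 CPM in PDGWT (log2 difference of FAPs from CD31+ cells -4.02 ± 0.41, and -4.71 without PDGWT replicate 3). Cx3cl1 was at 55.5 to 81.0 CPM against 25.8 to 36.3 (-1.21 ± 0.21), and Cxcl9 at 28.0 to 39.5 CPM against 7.29 to 9.54 (-1.91 ± 0.34).

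Cx3cl1 was called in 3 of the 4 comparisons of DUX4 with WT, more than any other member. Fractalkine, its product, is made as a membrane-bound adhesion molecule that is also shed as an attractant, and its receptor Cx3cr1 marks monocytes and macrophages. At 2 weeks Cx3cl1 was at 5.88, 1.73, 2.94, 1.82 and 1.22 CPM in WT.2Weeks and at 17.1, 14.3, 16.4, 4.41 and 5.18 CPM in IDUX.2Weeks. WT replicate 1 lay above the 2 lowest DUX4 libraries, while within replicates 1 to 3 and within replicates 4 and 5 every DUX4 library was above every WT library. The log2 difference was 2.07 ± 0.50 (adjusted p = 0.00886), and 1.97 with these 2 sets entered as a covariate (adjusted p = 0.00153).

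The libraries of the later time showed a wider gap in Cx3cl1. WT.16Weeks had 0.586, 2.02, 2.15 and 2.18 CPM and IDUX.16Weeks 25.0, 10.2, 8.49 and 18.3 CPM, without overlap. The log2 difference was 3.19 ± 0.59 (adjusted p = 0.00106), and 2.88 without WT replicate 1, the lowest library. The difference between the 2 times was not called (16 weeks minus 2 weeks, log2 1.12 ± 0.75, adjusted p = 0.447).

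Among sorted cells Cx3cl1 was called higher in FAPs and not in CD31+ cells. PDGWT libraries had 25.8, 30.5 and 36.3 CPM and PDGDUX libraries 128, 92.2, 158 and 138 CPM, so that the lowest DUX4 library lay far above the highest WT library. The log2 difference was 2.06 ± 0.21 (adjusted p = 4.8e-05). In CD31+ cells the values were 77.9, 81.0 and 55.5 CPM in WT and 90.1, 86.1, 82.5 and 112 CPM with DUX4, a log2 difference of 0.38 ± 0.19 that was not called (adjusted p = 0.334). There too each DUX4 library was above each WT library. The 2 differences themselves differed by 1.69 ± 0.27 (adjusted p = 0.00322). In WT the level was higher in CD31+ cells than in FAPs, and with DUX4 3 of the 4 FAP libraries were above all CD31+ libraries. Endothelial markers were lower in PDGDUX (summed level 99.5 to 176 CPM against 243 to 297 CPM in PDGWT, 3 of 10 called lower and 0 higher). Macrophage marker sums were 89.4 to 359 CPM in PDGDUX and 35 to 210 CPM in PDGWT, with 0 of 15 markers called. The part of either marker set in the Cx3cl1 difference was not tested.

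Cx3cr1, which is not a member by the rule, was at 0.792 to 4.37 CPM in WT.16Weeks and 2.28 to 9.95 CPM in IDUX.16Weeks (log2 difference 1.53 ± 0.57, adjusted p = 0.055). In FAP libraries it stayed at 0 to 0.474 CPM.

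**Figure D2:**
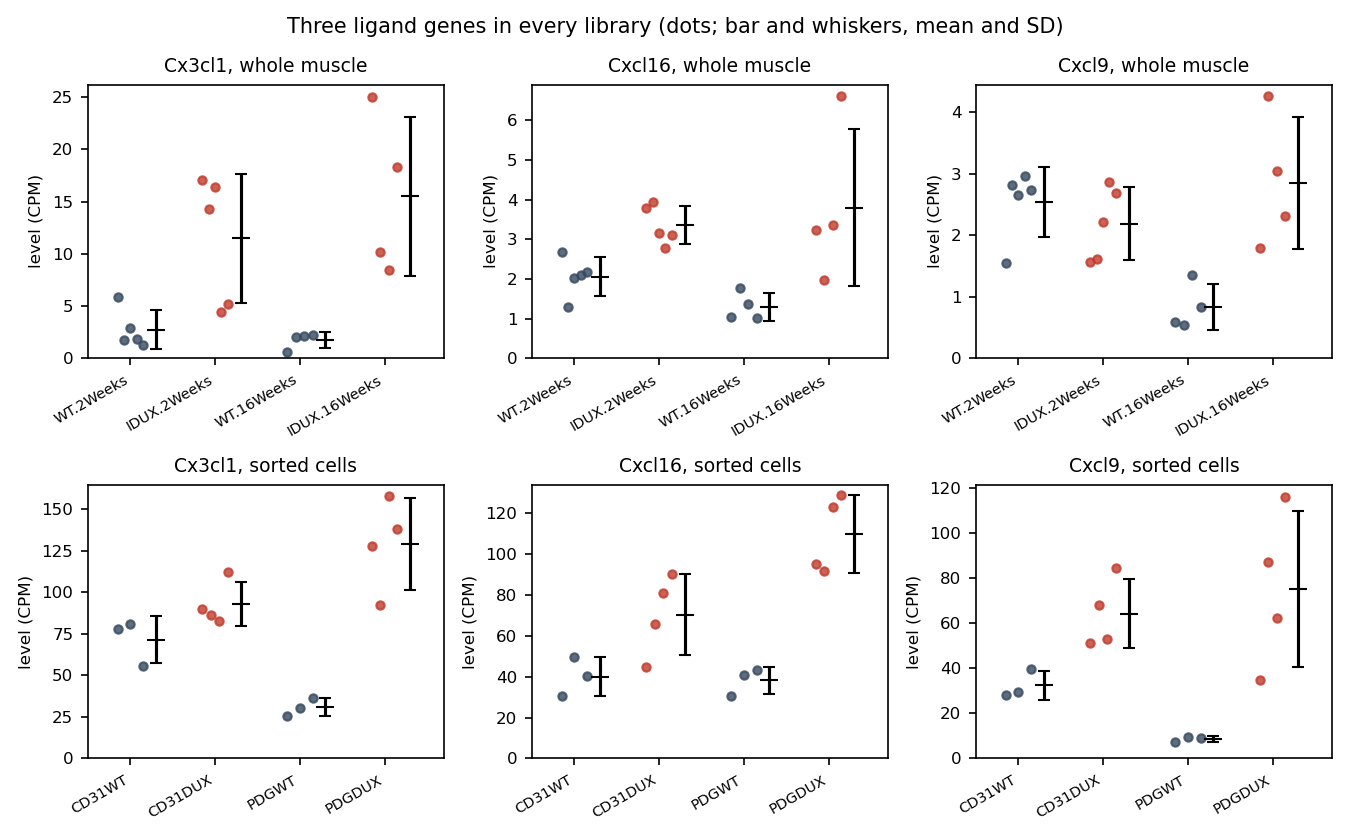
Levels in CPM (vertical axis, linear) of Cx3cl1, Cxcl16 and Cxcl9 in every library (dots; blue, WT; red, DUX4) with the mean and SD of each group as bar and whiskers; top row whole muscle, bottom row sorted cells. All 3 are higher in PDGDUX than in PDGWT and in IDUX.16Weeks than in WT.16Weeks without overlap, and only Cx3cl1 was called at 2 weeks.

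Among the other members, the ligands higher at 16 weeks were Ccl8, Cxcl9, Cxcl16 and Ccl27a, and Ccl25 was lower. In all, 9 of 31 members tested rose and 1 fell in IDUX.16Weeks, a share to be read against the 26.6% of all 15396 genes that were called in the same comparison, 14.1% higher and 12.5% lower. The median log2 difference was 0.51 over the 31 members and 0.01 over all genes tested. Muscle fibre markers were lower in the same libraries (57000 to 92900 CPM against 147000 to 164000, 5 of 8 called), macrophage markers were at 109 to 260 CPM against 41.2 to 209 CPM (Aif1, Fcgr1 and Mrc1 called higher of 15), and 3 of 10 FAP markers were called higher (940 to 1670 CPM against 190 to 745 CPM). WT.16Weeks replicate 1 held the 209 CPM of macrophage markers and the 190 CPM of FAP markers. The rest of its group had 41.2 to 46.7 CPM and 694 to 745 CPM. The part of these marker shifts in the calls below was not tested.

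Ccl8, a CC ligand, was at 0.195, 0, 0.0566 and 0 CPM in WT.16Weeks and at 2.44, 1.52, 1.52 and 2.92 CPM in IDUX.16Weeks. The WT values are 3, 0, 1 and 0 counts, so that the fitted log2 difference of 4.67 ± 1.03 (adjusted p = 0.00333) rests on few reads and on the prior count of the fit. It became 5.91 without WT replicate 1. In WT sorted cells Ccl8 was at 27.6, 27.7 and 44.9 CPM in FAPs and at 22.3, 3.8 and 0.826 CPM in CD31+ cells. Cxcl9, an interferon-induced T cell attractant acting through Cxcr3, was at 0.586, 0.543, 1.36 and 0.84 CPM in WT.16Weeks and 1.79, 4.26, 3.04 and 2.32 CPM in IDUX.16Weeks. The groups did not overlap, and the log2 difference was 1.73 ± 0.36 (adjusted p = 0.00233). The 2-week groups had Cxcl9 at 1.55 to 2.97 CPM, above every WT.16Weeks library.

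Cxcl16, the other membrane-bound chemokine and the ligand of Cxcr6, was at 1.04, 1.78, 1.36 and 1.01 CPM in WT.16Weeks and 3.24, 1.98, 3.36 and 6.62 CPM in IDUX.16Weeks. Its log2 difference was 1.55 ± 0.33 (adjusted p = 0.00249), with no overlap. Ccl27a, known as a skin ligand of Ccr10, had 2.93, 4.81, 5.88 and 2.69 CPM against 8.98, 7.0, 8.24 and 7.7 CPM (0.95 ± 0.24, adjusted p = 0.00775). Leaving out WT replicates 1 and 4 together brought this to 0.57 (adjusted p = 0.0899). Ccl25, a thymic and gut ligand of Ccr9, had 3.9, 2.64, 2.77 and 1.85 CPM against 1.74, 1.07, 1.2 and 1.07 CPM, and it fell by 1.13 ± 0.30 on the log2 scale (adjusted p = 0.011).

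Exons of several of these genes overlap a gene on the other strand: Cxcl16 overlaps Zmynd15, Ccl27a overlaps Il11ra1 and Ccl25 overlaps Elavl1. Whether the counting used strand is not given in the sources used here, so reads from the shared stretches cannot be told apart. Zmynd15 (0.13 to 0.504 CPM against 0.95 to 1.5) and Il11ra1 (28.6 to 36.8 against 56.8 to 67.5) were themselves higher in IDUX.16Weeks, with log2 differences of 2.22 ± 0.50 and 0.91 ± 0.18. Elavl1 did not pass the test (-0.09 ± 0.21).

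Ccl5 and Cxcl10 stood outside these calls. Ccl5, an attractant of T cells and monocytes, was at 0 in all 4 WT.16Weeks libraries and at 1.27, 0.457, 0.57 and 0.817 CPM in IDUX.16Weeks, at least 3.17-fold higher when the mean is set against the mean floor of 3 counts per library. It was too low for the main test and was called when no filter on low counts was used (adjusted p = 0.000459). Cxcl10, like Cxcl9 a ligand of Cxcr3, was at 12.6 CPM in WT.16Weeks replicate 1 and at 0.0776, 0.453 and 0.336 CPM in the other 3 WT libraries, against 1.37 to 2.68 CPM in IDUX.16Weeks. The log2 difference of -0.76 ± 1.05 was not called (adjusted p = 0.632), but without WT replicate 1 the direction turned and the gene was called (2.76, adjusted p = 0.0337). Limma's voom with quality weights, all libraries kept, gave 2.60 (adjusted p = 0.0197). Exons of Cxcl10 overlap Art3 on the other strand.

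Receptors that rose at 16 weeks included Ccr2, Ccr9 and Xcr1. Ccr2, the receptor of Ccl2 and Ccl7, had 3.32, 2.17, 1.53 and 0.672 CPM against 6.16, 4.72, 5.64 and 7.09 CPM. The groups did not overlap, but its adjusted p of 0.0396 (log2 difference 1.57 ± 0.54) rose above 0.05 under 8 of 16 alternatives, up to 0.0965.

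Ccr9, a receptor of gut-homing lymphocytes, had 0.586, 0.388, 0.396 and 0 CPM against 1.79, 1.37, 5.76 and 1.55 CPM (2.78 ± 0.78, adjusted p = 0.0144). Without IDUX.16Weeks replicate 3 the log2 difference was 2.04 (adjusted p = 0.0694). Its exons overlap Slc6a20a, which was at 0 in all WT.16Weeks libraries and at 5.12 to 18 CPM in IDUX.16Weeks, and reads of the 2 genes cannot be told apart where they share sequence. Xcr1, a marker of cross-presenting dendritic cells, had 0.716, 0.621, 0.509 and 0.168 CPM against 1.08, 0.305, 5.89 and 1.33 CPM. The groups overlapped, and the log2 difference of 2.03 ± 0.65 (adjusted p = 0.0279) was 0.85 (adjusted p = 0.248) without IDUX.16Weeks replicate 3. That library also had the highest Cxcr2 level of whole muscle, 10.7 CPM against 0.816 to 4.26 CPM elsewhere. It stood apart in its summed level of Y-linked markers too, 70.2 CPM against 3.05 to 10.6 CPM in the other 3 of its group. Most of that sum was 1 gene, Uty, at 65.6 CPM, while Ddx3y and Eif2s3y together were at 0.95 CPM in this library. The part of this in the Ccr9, Xcr1 and Cxcr2 values was not tested. Of 7 dendritic cell markers, 6 were tested at 16 weeks, and 3 were called higher (Xcr1, Itgax and Siglech), against 14.1% of all genes. Itgax was at 5.66, 0.233, 0.509 and 0.168 CPM in WT.16Weeks and 0.94, 0.457, 17.4 and 42.0 CPM in IDUX.16Weeks, so the groups overlapped (adjusted p = 0.0483). The other markers tested were not called, among them Zbtb46 (0.03 ± 0.16) and Flt3 (1.53 ± 0.59).

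At 2 weeks edgeR called 1 of 31 members, Cx3cl1, against 17.6% of all 15396 genes tested, 11.2% higher and 6.47% lower. Limma's voom called 7 members, against 4328 of all 15396 genes. Without IDUX.2Weeks replicate 4 edgeR called 4, against 3607 of all 15334 genes. Cxcl14 had 25.6, 31.2, 21, 23.6 and 19.1 CPM in WT.2Weeks and 9.73, 18.1, 14.1, 22.0 and 13.5 CPM in IDUX.2Weeks, with 1 DUX4 library above the lowest WT libraries (log2 difference -0.64 ± 0.22, adjusted p = 0.0578). With relative log expression size factors in place of TMM, Cxcl14 was called lower (adjusted p = 0.0491), which made the calls 1 higher and 1 lower. Cxcl12 was at 86.8, 90.9, 85.2, 119 and 96.6 CPM in WT.2Weeks and 39.5, 33.7, 47.5, 101 and 48.2 CPM in IDUX.2Weeks. It was not called in the main fit, and IDUX.2Weeks replicate 4 alone lay within the WT range. Cxcl10 had 0.49, 0.217, 0.55, 0 and 0.0942 CPM against 3.01, 1.49, 3.23, 0.309 and 0.483 CPM (2.65 ± 1.14, adjusted p = 0.121). Its 3 highest libraries were IDUX.2Weeks replicates 1 to 3, and replicates 4 and 5 lay within the WT range, while within replicates 1 to 3 and within replicates 4 and 5 each DUX4 library was above each WT library. With these 2 sets as a covariate the log2 difference of Cxcl10 was 2.65 (adjusted p = 0.0962). Cxcl16 was at 1.3 to 2.69 CPM in WT.2Weeks and 2.78 to 3.93 CPM in IDUX.2Weeks, without overlap (0.70 ± 0.28, adjusted p = 0.0989).

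Myeloid-associated members separated the 2 sets of 2-week libraries in both genotypes. Ccl6, a CC ligand made by myeloid cells, was at 11.2 to 20.6 CPM in replicates 1 to 3 of both genotypes and at 1.1 to 2.32 CPM in replicates 4 and 5. Ccl9, a ligand of Ccr1, was at 7.26 to 10.3 CPM and 1.62 to 3.63 CPM in the same sets, and Ccr2 at 5.78 to 13.5 CPM and 2.17 to 3.01 CPM. The macrophage marker sum moved with them. Endothelial and mural cell sums also separated these sets within each genotype, in the other direction, with higher sums in replicates 4 and 5. The difference between the sets was therefore not limited to myeloid genes, and its cause was not tested.

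No member was called for a difference between the DUX4 effects at 16 and 2 weeks (0 of 31, against 0.299% of all genes; 9 of 31 had an unadjusted p under 0.05). DESeq2 called 3 (Ccl8, Cxcl9 and Cxcl14), limma's voom 1 (Cxcl14) and the fit with the 2-week sets as a covariate 2 (Ccl8 and Cxcl9). By edgeR the largest of these was Ccl8 (4.14 ± 1.25, adjusted p = 0.147), followed by Cxcl9 (1.95 ± 0.47, adjusted p = 0.0826) and Cxcl14 (1.28 ± 0.33, adjusted p = 0.0996). Cxcl14 thus had its lower values with DUX4 at 2 weeks and its higher values with DUX4 at 16 weeks, 39.3, 23.3, 24.6 and 48.7 CPM against 21.5, 19.4, 21.9 and 24.9 CPM, and neither difference passed the threshold.

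**Figure D3:**
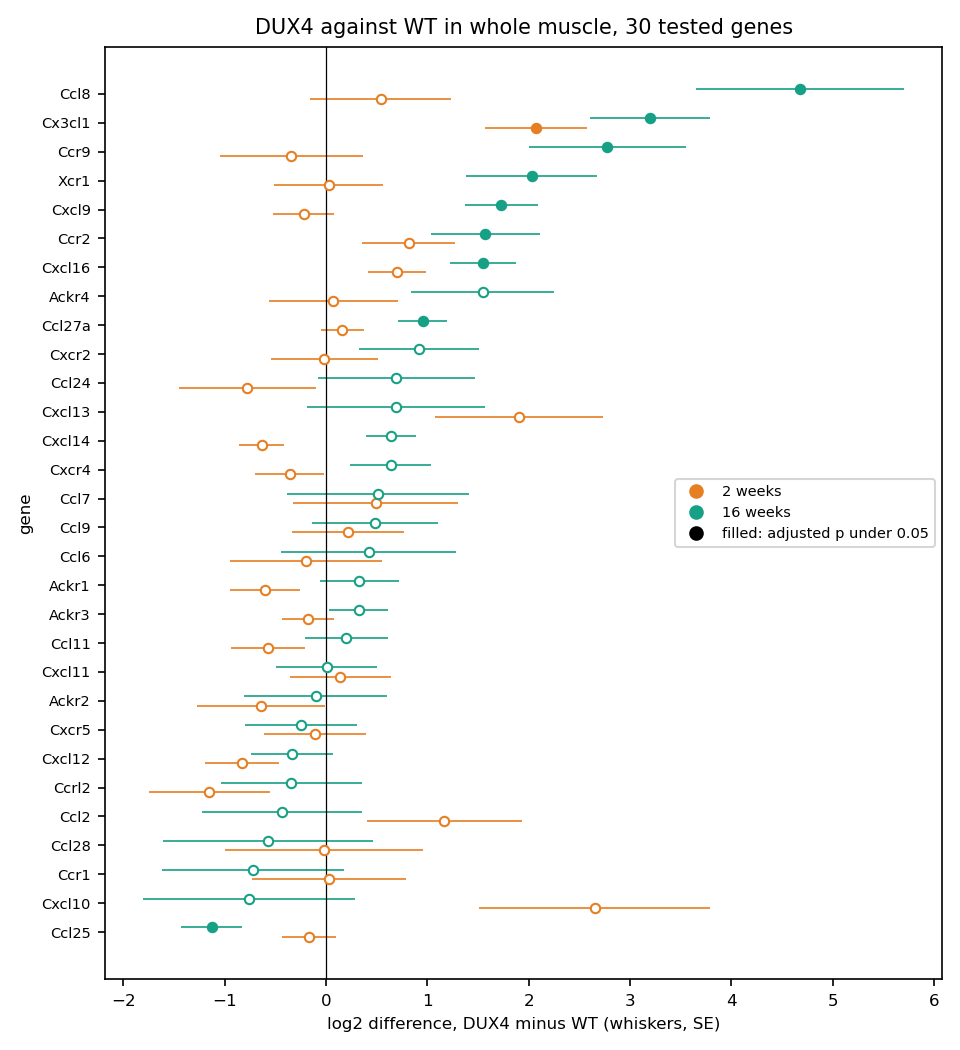
Log2 difference of DUX4 from WT (horizontal axis, whiskers SE) for 30 members tested in whole muscle, orange at 2 weeks and green at 16 weeks; filled points have an adjusted p under 0.05. Cx3cl1 is the single filled orange point, and 9 green points are filled, 8 to the right of 0 and Ccl25 to the left.

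In FAPs 4 of 48 members rose (Cx3cl1, Cxcl9, Cxcl16 and Ccl22) and 1 fell, against 3% of all 17008 genes called, 1.23% higher and 1.77% lower. Of these 4, 3 (Cx3cl1, Cxcl9 and Cxcl16) are among the 9 called higher in IDUX.16Weeks, where 14.1% of all genes were called higher. Ccl22 was not tested in whole muscle. How many of all genes were called higher in both comparisons was not counted, so no share stands beside this overlap. Ccl8 and Ccl27a, called higher at 16 weeks, had log2 differences of 1.02 (adjusted p = 0.624) and 0.20 (adjusted p = 0.909) in FAPs. Cxcl9 was at 7.29, 9.54 and 8.95 CPM in PDGWT and at 35, 87.0, 62.3 and 116 CPM in PDGDUX (log2 difference 3.13 ± 0.34, adjusted p = 0.00012). Cxcl16 was at 30.7, 40.7 and 43.3 CPM and 95.3, 91.6, 123 and 129 CPM (1.52 ± 0.24, adjusted p = 0.00219). Neither gene overlapped between the groups.

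Ccl22, a ligand of Ccr4 best known from dendritic cells and macrophages, was at 0 in the 3 PDGWT libraries and at 0.461, 2.67, 0.854 and 0.856 CPM in PDGDUX. That is at least 7.23-fold higher, and at least 4.32-fold without PDGDUX replicate 2 (adjusted p = 0.0117). Cxcl10 was at 110, 192 and 95.2 CPM in PDGWT and 238, 470, 354 and 614 CPM in PDGDUX, with every DUX4 library above every WT library, but it missed the threshold (1.66 ± 0.44, adjusted p = 0.0661). DESeq2 called it (adjusted p = 0.0073).

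The most abundant FAP ligands did not follow. Cxcl1 (4090 to 6740 CPM in PDGWT, 5320 to 12000 in PDGDUX), Cxcl14 (1930 to 2390, 2350 to 2860), Ccl11 (1390 to 1880, 1520 to 2470), Ccl2 (787 to 1800, 744 to 2470) and Ccl7 (677 to 979, 862 to 2290) overlapped between the genotypes and were not called. Their log2 differences lay between -0.05 and 0.58. PDGDUX replicate 4 had the highest level of Cxcl1, Cxcl2, Cxcl5, Ccl2 and Ccl7 of the 7 FAP libraries, with Ccl7 at 2290 CPM against 862 to 1070 CPM in the other 3 PDGDUX libraries.

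CD31+ cells showed another set. Of 48 members tested, 6 rose and 0 fell in CD31DUX (Ackr2, Cxcl14, Ccl11, Ccl7, Ccl17 and Ccl22), against 5.07% of all 17008 genes called, 3.72% higher and 1.35% lower. Without CD31WT replicate 1, the library with the macrophage sum of 997 CPM, 9 rose, against 916 of all 17730 genes called in either direction. Cxcl14 was at 138, 77.9 and 96.1 CPM in CD31WT and 344, 442, 451 and 305 CPM in CD31DUX (1.89 ± 0.19, adjusted p = 1.85e-05). Ccl11 was at 139, 129 and 118 CPM and 317, 256, 243 and 300 CPM (1.12 ± 0.17, adjusted p = 0.000755). Ccl7 was at 69.5, 54.8 and 49.3 CPM and 143, 127, 162 and 243 CPM (1.54 ± 0.33, adjusted p = 0.0137), and its adjusted p was 0.0842 without CD31WT replicate 3. For none of the 3 did the groups overlap.

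These 3 ligands were 3.71 to 4.38 log2 units higher in WT FAPs than in WT CD31+ cells, and FAP markers moved with them. The summed level of 10 FAP markers was 9200 to 12200 CPM in CD31WT and 27900 to 32900 CPM in CD31DUX, 8 of the 10 were called higher, and their median log2 difference was 1.66. None of the 10 was at 0 in either group. Endothelial marker sums were 5130 to 5890 CPM in CD31WT and 3700 to 4300 CPM in CD31DUX, with 0 of 10 called. Mural cell sums were 1060 to 1390 CPM in CD31WT and 581 to 807 CPM in CD31DUX. Red blood cell sums were 17200 to 30200 CPM and 1880 to 9830 CPM. The part of FAP RNA, or of these other shifts, in the Cxcl14, Ccl11 and Ccl7 differences was not tested. Ccl2 and Cxcl5, higher in WT FAPs by 3.73 and 3.80, had log2 differences of 1.17 ± 0.43 and 1.16 ± 0.62 in CD31+ cells and were not called.

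Ccl22 and Ccl17, both ligands of Ccr4, were at 0 in all 3 CD31WT libraries. Ccl22 was at 5.16, 4.58, 3.41 and 2.04 CPM in CD31DUX, at least 20.3-fold higher (adjusted p = 0.00154). Ccl17 was at 0.604, 5.0, 1.39 and 0.74 CPM, at least 10.3-fold higher and at least 4.88-fold without CD31DUX replicate 2 (adjusted p = 0.00948, and 0.0505 by limma's voom). The 2 genes flank Cx3cl1 on chromosome 8 of GRCm38, where Ccl22 spans 94745590 to 94751699, Cx3cl1 94772009 to 94782427 and Ccl17 94810453 to 94812036. Dendritic cell markers Itgax (0 to 0.112 CPM against 7.03 to 18.6) and Flt3 (0.059 to 0.259 against 2.18 to 4.88) were called higher in the same libraries, 2 of 7 on that list, whose median log2 difference was 1.61. The list's summed level, 70.8 to 94.6 CPM in CD31WT and 71.6 to 87.1 CPM in CD31DUX, was mostly Zbtb46 (65.7 to 92.4 and 43.4 to 57.4 CPM). Their part in the Ccl22 and Ccl17 differences was not tested. Macrophage marker sums were 997, 205 and 236 CPM in CD31WT and 903 to 1630 CPM in CD31DUX. Their median log2 difference was 1.55, with 0 of 15 markers called, and their part in the Ccl22 and Ccl17 differences was not tested either.

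**Figure D4:**
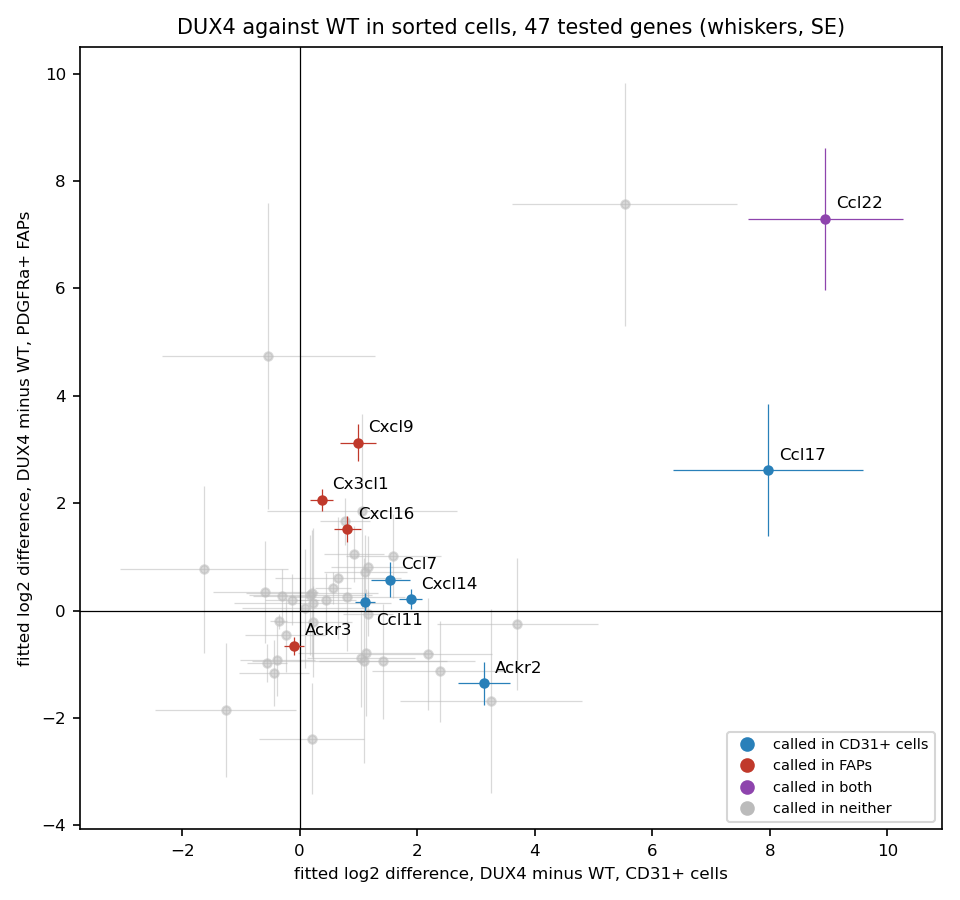
Fitted log2 difference of DUX4 from WT in CD31+ cells (horizontal axis) and FAPs (vertical axis), with SE whiskers, for 47 members tested in sorted cells; colours mark calls. Cx3cl1, Cxcl9 and Cxcl16 lie high on the vertical axis and Ackr2, Cxcl14, Ccl7 and Ccl11 to the right; the fitted values of Ccl22 and Ccl17 stand against WT groups at or near 0 and depend on the prior count.

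The atypical receptor Ackr2, which scavenges inflammatory CC chemokines and is known from lymphatic endothelium, had differences of opposite sign in CD31+ cells and FAPs. It was at 6.06, 3.63 and 9.09 CPM in CD31WT and at 40.8, 66.4, 62.6 and 50.7 CPM in CD31DUX (3.14 ± 0.45, adjusted p = 0.000429). In FAPs it was at 21.2, 12.7 and 15.9 CPM in WT and at 9.68, 5.56, 1.9 and 8.73 CPM with DUX4, lower in each DUX4 library (-1.36 ± 0.41, adjusted p = 0.0919). The 2 differences differed by -4.50 ± 0.60 (FAPs minus CD31+ cells, adjusted p = 0.000824). Each CD31DUX library was above each of the 7 FAP libraries. Lymphatic endothelial markers moved with Ackr2: their summed level was 224 to 334 CPM in CD31WT and 1060 to 1690 CPM in CD31DUX, and Flt4, Lyve1, Pdpn and Reln of the 5 were called higher. The part of a lymphatic share of the gate in the Ackr2 difference was not tested. In whole muscle Ackr2 stayed at 0.138 to 2.71 CPM.

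Effects in FAPs and CD31+ cells differed for 5 of the 48 members, 2 with the larger difference in FAPs and 3 in CD31+ cells, against 2.25% of all genes, 0.553% and 1.7% in these directions. Beside Cx3cl1 and Ackr2 these were Cxcl9 (2.13 ± 0.44, adjusted p = 0.0164), Cxcl14 (-1.67 ± 0.26, adjusted p = 0.00252) and Ccl11 (-0.95 ± 0.24, adjusted p = 0.0455). Cxcl9 was at 28.0, 29.6 and 39.5 CPM in CD31WT and 51.4, 68.2, 53.0 and 84.4 CPM in CD31DUX, without overlap, and was not called there (0.99 ± 0.31, adjusted p = 0.0787). Its between-type difference had an adjusted p of 0.057 without PDGWT replicate 1, and the count of calls was then 3. That of Ccl11 lost its call under 14 of 20 alternatives, RLE size factors included, under which the calls were 2 higher and 2 lower.

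Ackr3 was the 1 member called lower in FAPs. It was at 1090, 950 and 657 CPM in PDGWT and 730, 536, 487 and 531 CPM in PDGDUX, and the highest DUX4 library lay above the lowest WT library. The log2 difference of -0.66 ± 0.17 (adjusted p = 0.046) passed the threshold under 6 of 14 alternatives. In CD31+ cells Ackr3 was at 324 to 351 CPM in WT and 284 to 362 CPM with DUX4. Ackr1 was at 308 to 498 CPM in CD31WT and 193 to 406 CPM in CD31DUX (-0.56 ± 0.34, adjusted p = 0.432). Cxcl12, whose scavenging receptor is Ackr3, was at 428 to 565 CPM against 321 to 481 CPM in CD31+ cells and 594 to 642 CPM against 506 to 566 CPM in FAPs, with no call in either.

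**Figure D5:**
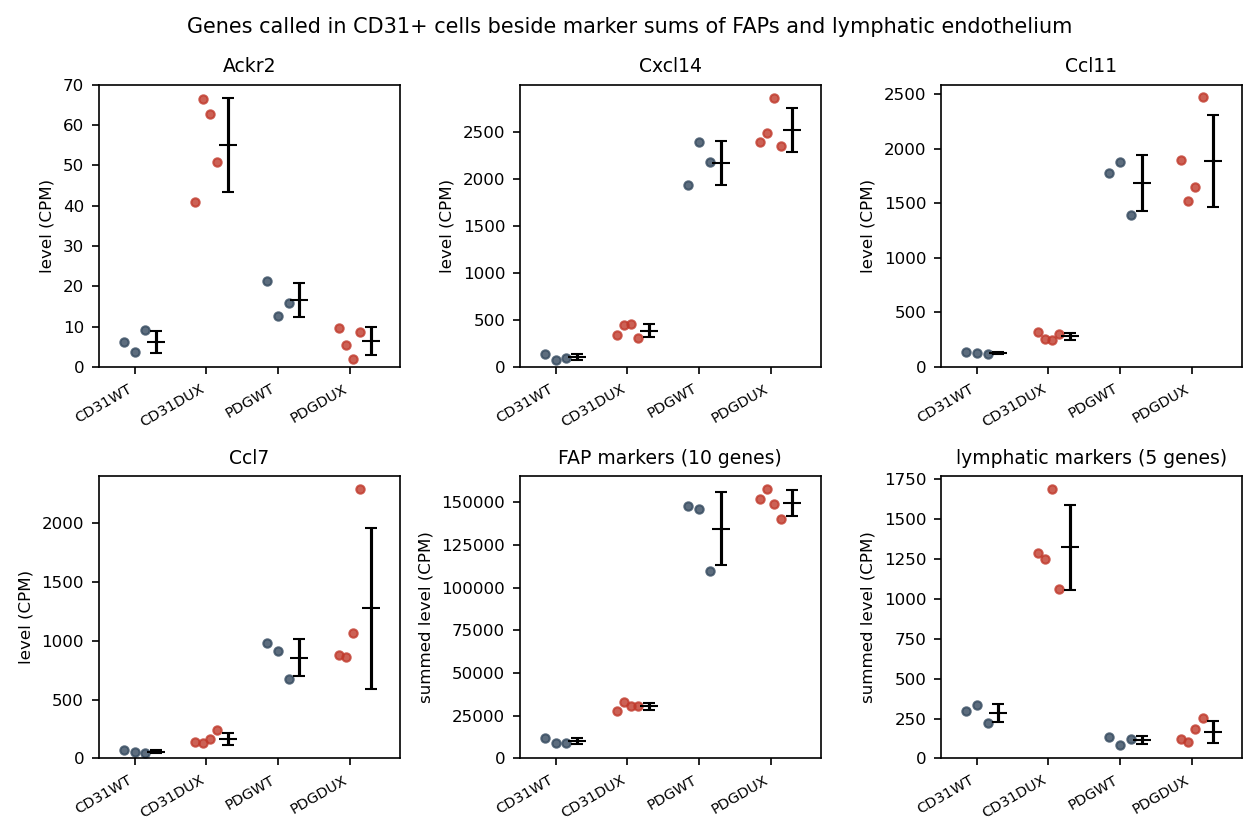
Levels in CPM of Ackr2, Cxcl14, Ccl11 and Ccl7 in the 14 sorted libraries, beside the summed CPM of 10 FAP markers and 5 lymphatic endothelial markers (dots, libraries; bar and whiskers, mean and SD; linear axes from 0). Cxcl14, Ccl11 and Ccl7 in CD31DUX stay far below the FAP libraries, as FAP markers do, whereas Ackr2 and the lymphatic markers are highest in CD31DUX.

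Signalling receptors were low in sorted cells and none of the 14 tested was called for DUX4 in either type, which is near the 5.07% of all genes called in CD31+ cells and the 3% in FAPs. Their summed level was 19.6 to 76.0 CPM in CD31+ libraries and 6.91 to 38.8 CPM in FAP libraries. Ccr7, which guides dendritic cells and T cells to lymph nodes, ranged from 1.29 to 13.8 CPM in CD31WT and 9.33 to 32.4 CPM in CD31DUX, and from 0.474 to 16.9 CPM in PDGWT, where replicate 3 was the high library. Cxcr4, the receptor of Cxcl12, was at 2.91 to 11.3 CPM in CD31+ libraries and 0.553 to 5.5 CPM in FAP libraries, and at 1.63 to 9.12 CPM in whole muscle. Ccrl2, an atypical receptor that presents chemerin, was at 2.95 to 20.1 CPM in CD31+ libraries and 3.24 to 18.7 CPM in FAP libraries, with no call in either type. Some receptors were too low in whole muscle to be tested there. Cxcr3 (for Cxcl9) was at 0 to 0.408 CPM, Cxcr6 (for Cxcl16) at 0.0634 to 0.658 CPM, Ccr4 (for Ccl17 and Ccl22) at 0 to 1.27 CPM, and Ccr3 (for Ccl11) at 0 to 0.0917 CPM.

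A list of 36 genes of chemokine signalling and handling (G protein subunits, receptor kinases, phosphoinositide 3-kinase gamma, Rac proteins and syndecans, which hold chemokines at the cell surface) was read beside the members. At 2 weeks 7 of 34 tested rose and 0 fell, against 11.2% of all genes higher and 6.47% lower, and at 16 weeks 12 rose and 3 fell, against 14.1% and 12.5%. Pik3r5, the adaptor of phosphoinositide 3-kinase gamma, was at 0.659 to 1.52 CPM in WT.2Weeks and 1.47 to 11.1 CPM in IDUX.2Weeks (2.56 ± 0.47), and at 0.453 to 1.82 CPM and 16 to 24.4 CPM at 16 weeks (4.08 ± 0.53). In CD31+ cells, against 3.72% of all genes higher and 1.35% lower, 2 of 36 rose, Sdc2 (57.3 to 72.0 CPM against 156 to 189, 1.41 ± 0.14) and Pik3r5 (2.33 ± 0.63). In FAPs, against 1.23% higher and 1.77% lower, 0 rose and 3 fell: Rgs16, a regulator of G protein signalling, fell by 1.08 ± 0.18, Sdc3 fell by 0.90 ± 0.20 and Sdc1 fell by 0.73 ± 0.17 on the log2 scale. Sdc2 is 1 of the genes much higher in WT FAPs (821 to 1120 CPM) than in WT CD31+ cells.

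A list of 20 known inducers of chemokine transcription holds genes such as interferon gamma, tumour necrosis factor and NF-kB subunits. At 16 weeks Irf7 rose (1.81 ± 0.37) and Ifngr2 fell by 0.83 ± 0.14 among 14 tested, against 14.1% of all genes higher and 12.5% lower. At 2 weeks, against 11.2% and 6.47%, Relb rose (0.91 ± 0.27) and Ifngr2 and Stat2 fell by 0.48 ± 0.12 and 0.54 ± 0.16. In CD31+ cells Ifngr2 (1.08 ± 0.20), Ifngr1 (0.55 ± 0.12) and Nfkb2 (0.54 ± 0.14) rose among 18 tested, against 3.72% of all genes. In FAPs 0 of 18 were called, near the 3% of all genes. There Ifngr2 was at 30.4 to 39.7 CPM in PDGWT and 48 to 81.1 CPM in PDGDUX (0.72 ± 0.20, adjusted p = 0.0672), and Il6 was at 666 to 801 CPM and 819 to 2680 CPM (1.06 ± 0.31, adjusted p = 0.0949), both without overlap. Ifng was at 0 to 0.11 CPM in all 7 FAP libraries. In whole muscle it was at 0 in every WT library, at 0 to 2.83 CPM in IDUX.2Weeks and at 0.376 to 0.76 CPM in IDUX.16Weeks. These levels rest on few reads, and Ifng was too low to be tested.

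Of the 67 rows, 30 were tested in both whole muscle and sorted cells, 1 (Ccl28) in whole muscle only and 18 in sorted cells only. The other 18 were too low in both, with a highest level of 1.77 CPM in any library (a Ccl27 row), and 3 of them were at 0 in all 32 libraries. Some members have near-identical copies between which reads cannot be told apart: 3 rows named Ccl21b with Ccl21c, 2 rows each of Ccl19 and Ccl27, and Ccl27a with Ccl27b. One Ccl21b row was at 9.77, 4.21, 4.66 and 0 CPM in CD31DUX and 2.3, 4.91, 14.1 and 0 CPM in PDGDUX against 0 to 0.279 CPM in both WT groups, and is reported as uncertain for that reason.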

How the data were processed

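The authors deposited expected counts per gene, estimated with Salmon 0.6.0 after CASAVA 1.8, with mm10 as build, per the submitters' processing notes. The annotation release, the step from transcripts to genes and the use of strand were not given in the sources used here. Counts were rounded to whole numbers, and symbols and positions were taken from GENCODE vM21 (GRCm38). Whole muscle (18 libraries, 15396 genes tested) and sorted cells (14 libraries, 17008 genes) were fitted apart with edgeR 4.0.16 (robust quasi-likelihood test, TMM, filterByExpr with a minimum count of 10, Benjamini-Hochberg over all genes, R 4.3.3). Errors of log2 differences are SE, taken from the difference and its F. The fit was tested on simulated data. Alternatives were DESeq2 1.42.0, limma 3.58.1 voom with quality weights, RLE factors, other filters, a minimum change, fewer groups, a covariate for 2 sets of libraries at 2 weeks and leaving out libraries. Depth was 6071276 to 20666816 counts per library. The members and gene lists were chosen with earlier results of these data known. Values are given for members called in a DUX4 comparison or interaction, for the 4 most abundant ligands and receptors of WT.2Weeks, CD31WT and PDGWT, and for the 5 largest differences each way between WT cell types. Of the signalling and inducer lists, up to 3 called genes with the smallest p are named. Ccl5, Ccl9, Cxcl2, the receptors of called ligands and the other genes named were chosen after their values were seen. Results for 1 member, counted in the totals but not plotted, and for 1 gene of the lists are not reported here.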

Additional observations from a re-analysis of the deposited data

Results flagged for a closer look

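Within groups of 4 or 5 libraries, 17 members were checked in 84 group tests for 1 library far from the others, and 8 were found; chance gives about 1 in 20. Ackr2 was at 2.71 CPM in WT.2Weeks replicate 2 and at 0.188 to 0.898 CPM in the others. Ccl11 was at 23.5 CPM in the same library and at 6.42 to 9.45 CPM in the others. Cxcl9 was at 1.55 CPM in WT.2Weeks replicate 1, below the 2.66 to 2.97 CPM of the others. WT.16Weeks replicate 1 was low in Ackr3 (7.16 CPM against 16.9 to 17.5) and in Cx3cl1 (0.586 CPM against 2.02 to 2.18). Ccr9 was at 5.76 CPM in IDUX.16Weeks replicate 3 against 1.37 to 1.79 CPM. PDGDUX replicate 4 was high in Ccl7 (2290 CPM against 862 to 1070) and in Ccr2 (4.62 CPM against 0.553 to 0.962).

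The DUX4 effect differed between FAPs and CD31+ cells, by edgeR's interaction term, for 5 members. The log2 difference of FAPs minus CD31+ cells was -4.50 ± 0.60 (SE) for Ackr2, -1.67 ± 0.26 for Cxcl14, -0.95 ± 0.24 for Ccl11, 1.69 ± 0.27 for Cx3cl1 and 2.13 ± 0.44 for Cxcl9.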

How the results depend on the processing

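Of 40 called differences of single members, 30 kept their call under all alternatives run for them, 10 lost it under at least 1, and 0 changed direction; 49 of 594 values fell short of the threshold. At 2 weeks 1 member was called by edgeR, 2 by DESeq2, 2 with RLE factors (1 higher, Cx3cl1, and 1 lower, Cxcl14), 7 by limma's voom, 2 with only the 2 groups compared and 1 to 4 when leaving out 1 library, 4 being without IDUX.2Weeks replicate 4. Of all 15396 genes, 2717 were called by edgeR, 3325 by DESeq2, 2741 with RLE factors and 4328 by voom. With only the 2 groups it was 2697 of 13789, and without IDUX.2Weeks replicate 4 it was 3607 of 15334. At 16 weeks 10 members were called, 5 under the stricter filter, which tests fewer genes, and 8 to 11 when leaving out 1 library. Of all genes, 4097 of 15396 were called, and 3429 of 11703 under the stricter filter. For the difference between times 0 were called, but 3 by DESeq2, 1 by voom and 2 with the term for the 2 sets of 2-week libraries. In FAPs 5 members were called, 8 by DESeq2, 4 higher and 0 lower with RLE factors, and 4 to 6 when leaving out 1 library. Of all 17008 genes, 510 were called, 1027 by DESeq2 and 496 with RLE factors. In CD31+ cells 6 members were called, and 5 to 9 when leaving out 1 library. Of all genes, 863 of 17008 were called, and 520 to 1091 when leaving out 1 library. Between the effects in the cell types 5 members were called, 2 higher and 2 lower with RLE factors, and 3 to 6 when leaving out 1 library, 3 being without PDGWT replicate 1. Of all genes, 383 of 17008 were called, 371 with RLE factors, and 238 of 17836 without PDGWT replicate 1. Between WT FAPs and WT CD31+ cells 13 members were called, and 12 to 17 when leaving out 1 library, 17 being without PDGWT replicate 3. Of all genes, 5295 of 17008 were called, and 4779 of 17801 without PDGWT replicate 3. The cause of these shifts was not tested. A covariate from Y-linked counts was not fitted, since Ddx3y and Eif2s3y together reached at most 1.89 CPM in any library and gave no split. IDUX.16Weeks replicate 3 alone stood apart in the wider Y-linked sum, mostly through Uty (65.6 CPM). No paired analysis was possible because the labels give the group names no replicate number. Members under the 0.145 to 0.494 CPM that 3 counts amount to are limited by depth.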
